A study of Homo sapiens with 16 samples.

Results

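The carcinoembryonic antigen-related cell adhesion molecules CEACAM1, CEACAM5, CEACAM6 and CEACAM7 were followed in 16 mRNA libraries of Caco-2 cells, an established line from a human colon carcinoma whose cells polarise into an enterocyte-like layer. The 4 genes are those listed by symbol out of 61228 gene rows, and the group was chosen because CEACAM7 is strongly higher after induction of inflammatory bowel disease (IBD). Their levels in the IBD comparisons are therefore a description and carry no test. The cells grew on a magnetically actuated villus-on-chip, and each of 4 deposited tables held 4 libraries. The table IBD is the induction, NOS1 is the static control by elimination, and VOS1 and VOS2 are the swing tables, of which no label says which was the physiological and which the pathological swing. All libraries came from the same line, and no label names a genetic change. The series design calls the induced group IBD-VOS, and the sources used here give neither the agent of the induction, its dose and its duration nor the swing those chips received. Replicates are called biological in the series design, but no label ties them to separate chips or days, so a p-value measures the spread between these samples.

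CEACAM proteins are immunoglobulin-type glycoproteins of the epithelial surface that bind one another, and some also bind bacteria. CEACAM1 crosses the membrane and carries inhibitory signalling motifs in its long cytoplasmic tail, whereas CEACAM5, CEACAM6 and CEACAM7 are held in the outer leaflet by a glycosylphosphatidylinositol (GPI) anchor. CEACAM5 is the tumour marker CEA, CEACAM6 is a known ileal receptor of adherent-invasive Escherichia coli in Crohn's disease, and CEACAM7 is a product of mature cells of the normal colon surface that is commonly low in colorectal tumours.

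The stretches just upstream of a start site of each of the 4 genes are shown because the genes are close relatives whose levels were not all alike. They come from RefSeq (GRCh38.p14, chromosome 19), which held all 4 members, and cover positions -120 to -1 before the start site used for each gene. The GENCODE v29 gene spans given below begin further upstream, so these stretches lie wholly or in part inside those spans. Capitals mark the E-box hexamer CACGTG or its variant CATGTG, the latter read as CACATG when it lies on the opposite strand.
CEACAM7, chr19:41688271-41688390, minus strand: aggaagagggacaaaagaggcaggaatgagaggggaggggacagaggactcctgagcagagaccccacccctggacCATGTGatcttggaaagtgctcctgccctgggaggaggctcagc
CEACAM6, chr19:41755410-41755529, plus strand: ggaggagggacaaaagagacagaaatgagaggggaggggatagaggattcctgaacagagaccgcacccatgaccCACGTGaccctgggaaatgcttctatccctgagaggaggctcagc
CEACAM5, chr19:41708506-41708625, plus strand: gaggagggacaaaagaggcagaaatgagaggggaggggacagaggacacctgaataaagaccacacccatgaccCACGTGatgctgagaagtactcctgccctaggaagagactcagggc
CEACAM1, chr19:42528482-42528601, minus strand: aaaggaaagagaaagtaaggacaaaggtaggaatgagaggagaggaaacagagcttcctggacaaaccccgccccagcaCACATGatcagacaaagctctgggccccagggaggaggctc
The hexamer lay at nearly the same place in each gene, beginning at position -44 in CEACAM7, -45 in CEACAM6, -46 in CEACAM5 and -41 in CEACAM1. CEACAM5 and CEACAM6 held the palindrome CACGTG, which 7.26% of 35116 promoter windows of 300 bases contain on either strand. CEACAM7 and CEACAM1 held CATGTG in its place, which 11.1% of the windows contain.

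Over the whole 300 base windows, 250 bases before and 50 after the start, the promoter of CEACAM7 was identical to that of CEACAM5 at 81.4% of aligned positions and to that of CEACAM6 at 80.5%. CEACAM1 was the most distant of the 4, with identities of 65.6% to 71.2%. Other motifs were searched on both strands in these windows. The GC box GGGCGG occurred in CEACAM1 and CEACAM6 and in 45.0% of all windows, and the letters TATAAA occurred in CEACAM6 alone of the 4 and in 11.5% of all windows. A match to the kappaB consensus was found in CEACAM1 alone of the 4, where 11.3% of all windows have one. TGANTCA and TTCNNNGAA, the AP-1 and STAT motifs, were in none of the 4 windows and in 7.71% and 7.66% of all windows. These matches describe letters and show no binding.

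The 4 members lie on chromosome 19 in GENCODE v29 (GRCh38), and all but CEACAM7 overlap other genes. CEACAM7 (ENSG00000007306.14) runs from 41673307 to 41706976 on the minus strand and overlaps no other gene. CEACAM5 (ENSG00000105388.15) runs from 41708585 to 41729798 on the plus strand, and 99.9% of it is also covered by the gene model AC243967.1 on the same strand. CEACAM6 (ENSG00000086548.8) runs from 41750977 to 41772208 on the plus strand and is covered in full by AC243967.1 and the antisense gene AC243967.2 together. CEACAM1 (ENSG00000079385.21) runs from 42507304 to 42561234 on the minus strand, wholly inside LIPE-AS1, a long antisense RNA gene on the plus strand.

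**Figure D1:**
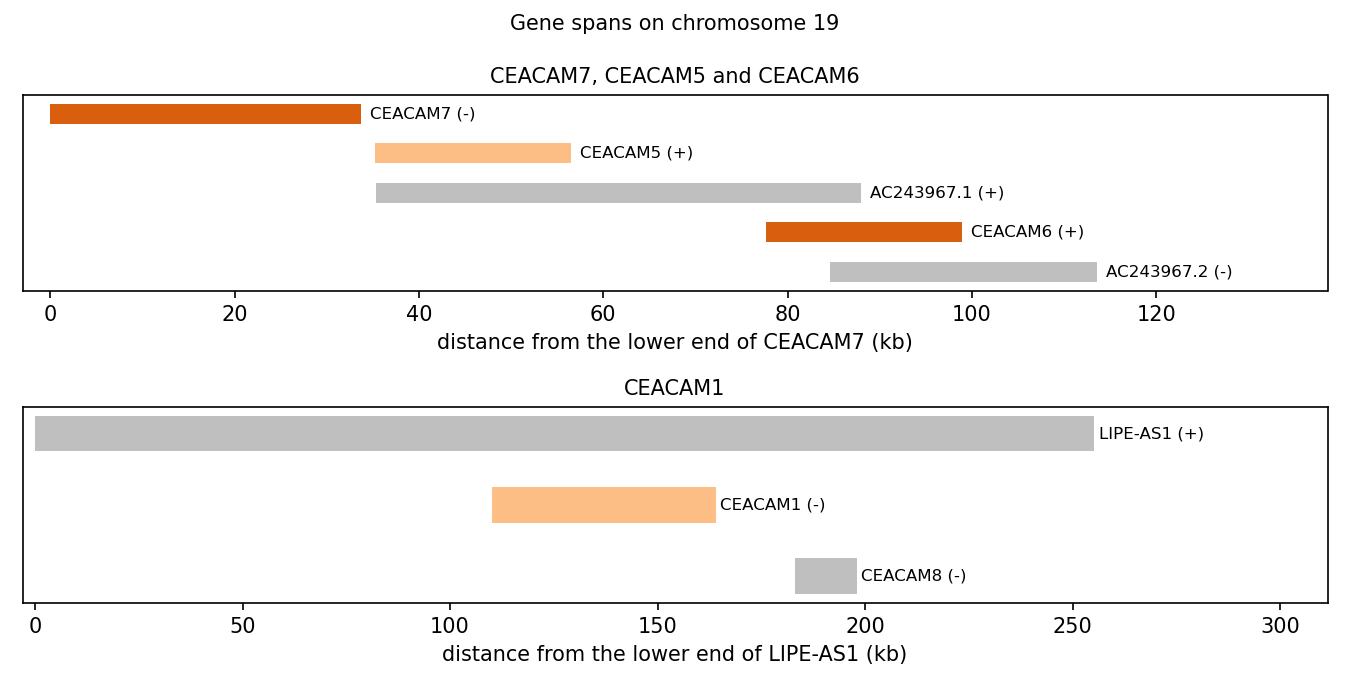
Spans of the genes on chromosome 19 in GENCODE v29, drawn to scale as distance in kb from the lower end of CEACAM7 (upper panel) or of LIPE-AS1 (lower panel), with the strand in brackets. Orange bars are members with counts in the tables NOS1, VOS2 and IBD, pale bars are members at 0 there, and grey bars are neighbours; CEACAM7 stands clear of every neighbour.

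CEACAM1 and CEACAM5 were listed at 0 counts in all 12 libraries of NOS1, VOS2 and IBD, whereas all 4 VOS1 libraries held counts for both. The lengths implied by counts and FPKM (fragments scaled by gene length and library size) differ in the same way. For CEACAM7 that length was 33674 bp in NOS1, VOS2 and IBD, which is close to the whole gene span of 33670 bp, and 2653 bp in VOS1, close to the 2649 bp of its exons together. Among protein-coding genes with at least 10 CPM in VOS1 (CPM is the count scaled to a common library total), 318 of 325 that lie wholly inside 1 other gene (97.8%) were at 0 in all 12 libraries of the other tables. Of 2931 such genes without any overlap, 24 (0.819%) were at 0. CEACAM1 is in the first of these classes. CEACAM5 is not, since a few of its bases lie outside AC243967.1, and it falls among 6002 partly covered genes of which 144 (2.40%) were at 0. Of the 170 partly covered genes with at least 99% of their span covered, as in CEACAM5, 90 (52.9%) were at 0. The genes CEACAM1 and CEACAM5 are therefore given as listed at 0, with no fold change, and the zeros are not read as absence.

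CEACAM6 kept counts although it is fully covered. In the 12 libraries the neighbour AC243967.1 had an implied length of 48078 to 48100 bp, near the 48081 bp of its shorter transcript, which would leave 1160 bp of CEACAM6 (41756738 to 41757897), with 222 bp of exon, free of any neighbour. Its CPM in these tables may then come from a small share of its reads, and the level of CEACAM6 is uncertain there. How the counting treated strand is unknown from the sources used here, and the library protocol has no step that marks the strand.

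VOS1 shows all 4 members, and the deposited FPKM gives their levels per length there. CEACAM6 was the highest member, at 41.1, 50.2, 40.9 and 27.6 FPKM in replicates 1 to 4. CEACAM1 stood at 14.3, 19.1, 14.8 and 7.13 FPKM, and CEACAM5 at 13.7, 15.2, 14.2 and 5.61 FPKM. CEACAM7 was the lowest, at 1.38, 2.04, 1.84 and 0.429 FPKM. The order CEACAM6, CEACAM1, CEACAM5, CEACAM7 was the same in each of the 4 libraries. The ranges of CEACAM1 and CEACAM5 overlapped across libraries, and the difference within libraries was not tested. The order of CEACAM1 and CEACAM5 also rests on the length used. The length implied for CEACAM5 was 3986 bp, against 3351 bp for its exons together in GENCODE v29. With the latter, an alternative chosen after seeing the data, CEACAM5 had 16.2, 18.1, 16.9 and 6.67 FPKM and exceeded CEACAM1 in replicates 1 and 3.

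In CPM, VOS1 replicates 1 to 4 held 79.3, 105.4, 81.5 and 39.4 for CEACAM1 and 54.5, 60.6, 56.7 and 22.3 for CEACAM5. Replicate 4 was the lowest library for each of the 4 members. It also stood apart beyond this family. Over genes with enough counts, the mean chi-square per gene was 70.6 to 90.8 between replicate 4 and each other VOS1 library. Among those other libraries it was 13.8 to 19.1. Relative to the mean CPM of the other 3 libraries, replicate 4 stood at 62.6% for CEACAM6, 44.4% for CEACAM1, 39.0% for CEACAM5 and 24.4% for CEACAM7. CEACAM18, a family member on another stretch of the chromosome, stood at 80.9% there, CEACAM19 at 49.99% and CEACAM20 at 35.0%. LIPE-AS1, the antisense gene over CEACAM1, held 10 to 24 counts per VOS1 library against 1110 to 2748 for CEACAM1. VOS1 was counted over other gene features and is compared with no other table.

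**Figure D2:**
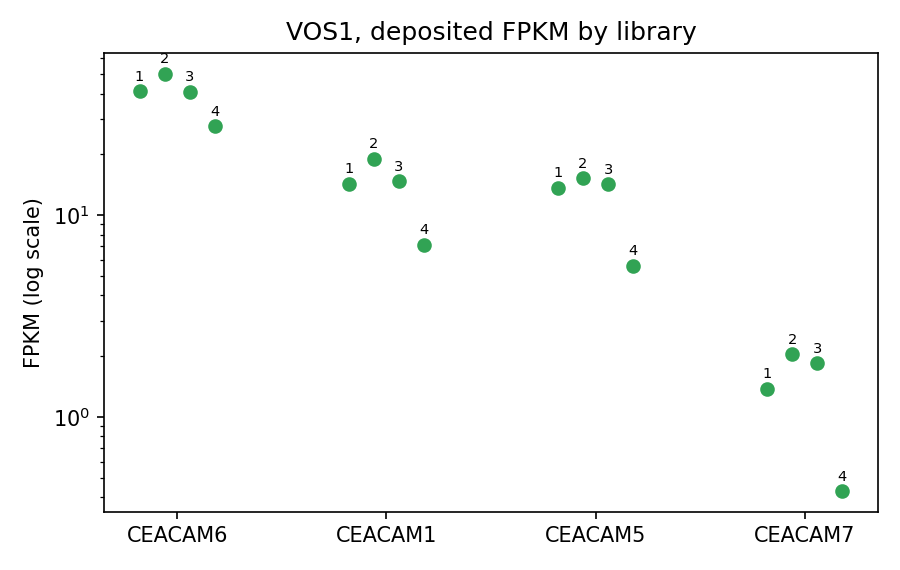
Deposited FPKM (log axis) of the 4 members in the 4 VOS1 libraries, with each point a library and its replicate number above it. CEACAM6 is highest at 27.6 to 50.2 FPKM, CEACAM7 lowest at 0.429 to 2.04, and replicate 4 is the lowest library of every member.

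CEACAM7, the member of the mature colon surface and the gene for which the group was chosen, had 12.6, 13.5, 29.6 and 33.6 CPM in IBD replicates 1 to 4. In VOS2 it had 3.34, 2.14, 2.95 and 2.65 CPM, and in NOS1 7.44, 3.02, 2.27 and 7.40 CPM. Each IBD library exceeded every VOS2 and NOS1 library, while the NOS1 and VOS2 ranges overlapped. The counts behind these values were 242 to 548 per IBD library, 36 to 63 per VOS2 library and 44 to 149 per NOS1 library.

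The mean of CEACAM7 was 22.3 ± 10.9 CPM in IBD (SD, n = 4), 2.77 ± 0.505 in VOS2 and 5.03 ± 2.77 in NOS1. This is a mean 8.06-fold that of VOS2 (log2 fold change 3.03 ± 0.41 SE in edgeR) and 4.43-fold that of NOS1 (2.18 ± 0.38). IBD fell into a lower and a higher pair of libraries, and replicates 3 and 4 together were 2.43-fold above replicates 1 and 2. With replicates 1 and 2 alone it came to 2.25 for VOS2 and 1.39 for NOS1 on the log2 scale, and the call against NOS1 was lost. In bulk RNA, more cells that express a gene and more RNA per cell cannot be told apart.

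CEACAM6 was higher in IBD by a smaller margin. It had 27.4, 24.5, 40.5 and 38.0 CPM in IBD replicates 1 to 4, 18.02, 24.3, 19.7 and 17.8 in VOS2, and 23.8, 21.3, 17.3 and 19.6 in NOS1. The lowest IBD library, replicate 2, was only just above the highest VOS2 library. Means were 32.6 ± 7.82 CPM in IBD, 19.9 ± 3.01 in VOS2 and 20.5 ± 2.75 in NOS1 (SD, n = 4 each), 1.63-fold and 1.59-fold higher in IBD (log2 fold changes 0.73 ± 0.16 and 0.69 ± 0.16 SE). Replicates 3 and 4 were again the higher pair, 1.51-fold above replicates 1 and 2.

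**Figure D3:**
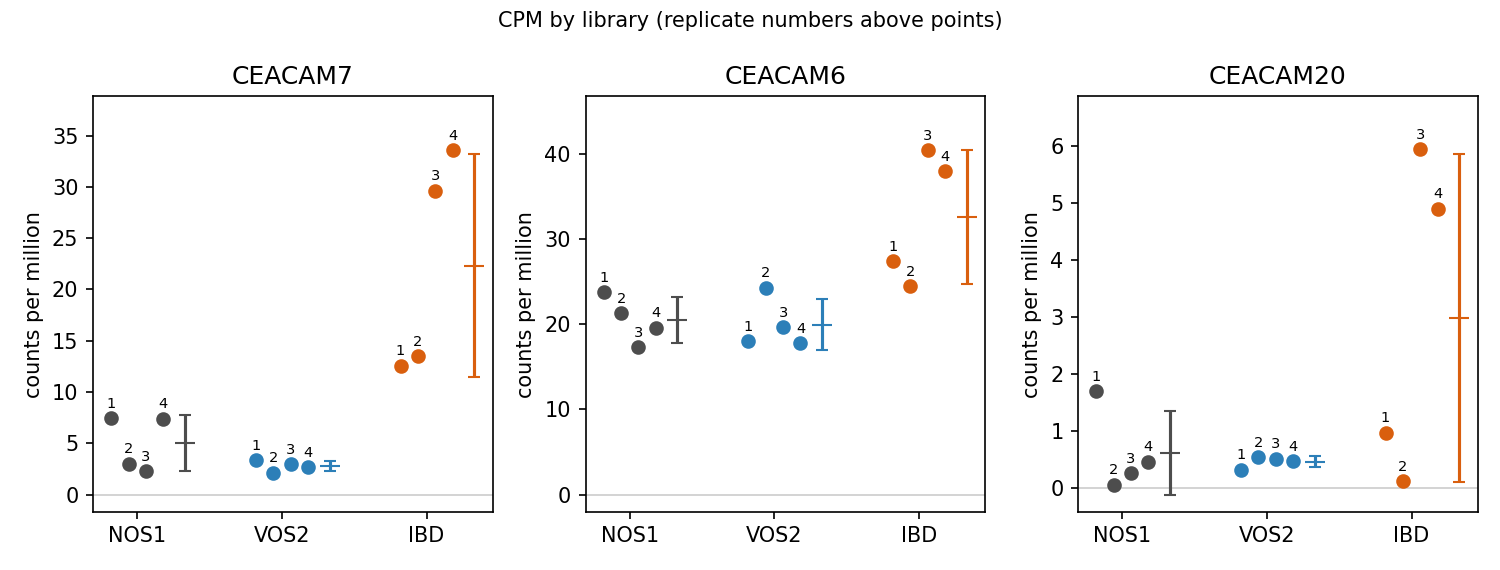
CPM of CEACAM7, CEACAM6 and CEACAM20 in the libraries of NOS1, VOS2 and IBD, with replicate numbers above the points and the mean ± SD beside each group (n = 4). IBD replicates 3 and 4 are the 2 highest libraries in all 3 panels, and IBD replicate 2 is among the lowest for CEACAM20, at 0.112 CPM.

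As a description of the contrasts that chose the members, CEACAM6 and CEACAM7, the 2 tested ones, were past the edgeR threshold and higher in IBD against VOS2, where 2.32% of 14773 tested genes were called higher. Both were also past it against NOS1, where 2.8% of tested genes were. The other 2 members had no counts and were not tested. Ranges that put all 4 IBD libraries above the other table were found for 4.45% of tested genes against VOS2 and 4.21% against NOS1. The 2 comparisons share the IBD libraries, and both chose the members, so nothing is read from these counts or from how often they hold under other settings. The call of CEACAM6 was lost under 9 of 19 alternative settings against VOS2 and 9 of 20 against NOS1, among them leaving out IBD replicate 3 or IBD replicate 4. It was also lost without VOS2 replicate 1, 3 or 4 and without NOS1 replicate 4. That of CEACAM7 was lost under 0 of 19 and 1 of 20.

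**Figure D4:**
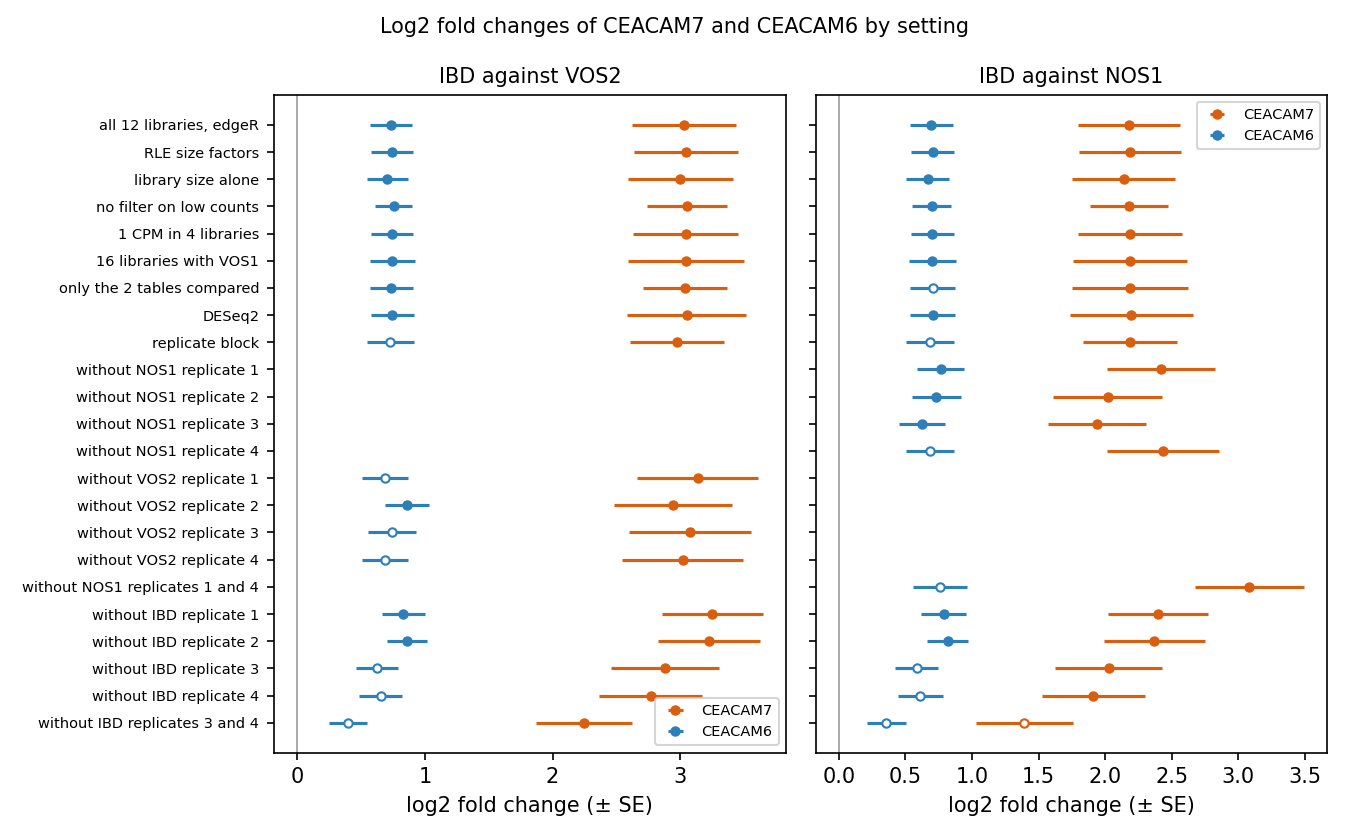
Log2 fold change ± SE (horizontal axis) of CEACAM7 and CEACAM6 in IBD against VOS2 and against NOS1, by setting (vertical axis), for count-based fits. Filled points were called at the adjusted threshold of 0.05 and open points were not. Both contrasts chose the members, so the calls are a description and no support. CEACAM7 lies between 1.39 and 3.25 in all of them, and CEACAM6 stays below 0.86.

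Swing against static, VOS2 against NOS1, did not choose the members and can be tested. No gene was called among 14773 (0.0%), with 1457 at an unadjusted p below 0.05 in edgeR, while DESeq2 called 6 genes. CEACAM7 was 1.82-fold higher in the NOS1 mean than in the VOS2 mean, a log2 fold change of -0.86 ± 0.41 SE (edgeR quasi-likelihood, Benjamini-Hochberg adjusted p = 0.512). NOS1 was split, with replicates 1 and 4 at 7.44 and 7.40 CPM and replicates 2 and 3 inside the VOS2 range of 2.14 to 3.34 CPM. Without NOS1 replicates 1 and 4 the log2 fold change was 0.0455 ± 0.42. CEACAM6 showed -0.04 ± 0.16 (edgeR adjusted p = 0.97), and its NOS1 and VOS2 libraries overlapped over nearly their whole range. Ranges of VOS2 and NOS1 that do not overlap were found for 4.58% of tested genes and for neither member.

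The NOS1 libraries in which CEACAM7 was high were also high in KRT7, a simple-epithelium keratin known from earlier results to vary in the static table. KRT7 had 263, 59.2, 22.3 and 221 CPM in NOS1 replicates 1 to 4. Over KRT7, the intermediate filament gene VIM and the adhesion receptor gene CD44 together, the median log2 difference from the mean of NOS1 and VOS2 was 2.29 and 2.03 in NOS1 replicates 1 and 4, and -1.74 to 0.61 in the other 10 libraries. In IBD, where CEACAM7 was highest in replicates 3 and 4, their median was -0.42 and 0.61 in these libraries. Their part in the CEACAM7 levels of NOS1 was not tested.

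IBD replicates 3 and 4 also stood out for 10 hypoxia genes, a list taken up because earlier results had shown it. The median log2 difference of the list from the mean of NOS1 and VOS2 was 2.37 and 2.01 in these libraries, 1.03 in IBD replicate 1 and -0.13 in IBD replicate 2. NDRG1, a stress-induced gene of the list, had 1956 and 1098 CPM in replicates 3 and 4 and 122 CPM in replicate 2. CEACAM7 had 13.5 CPM in IBD replicate 2, where the list stood at -0.13. The part of these genes in the levels of CEACAM7 and CEACAM6 was not tested. In edgeR 7 of the 10 hypoxia genes rose against VOS2 and 6 against NOS1, beside 2.32% and 2.8% of all tested genes. Median log2 fold changes of the list were 1.71 and 1.498, against -0.01 and -0.02 over all tested genes. As the list was picked on these libraries, this is no independent evidence.

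**Figure D5:**
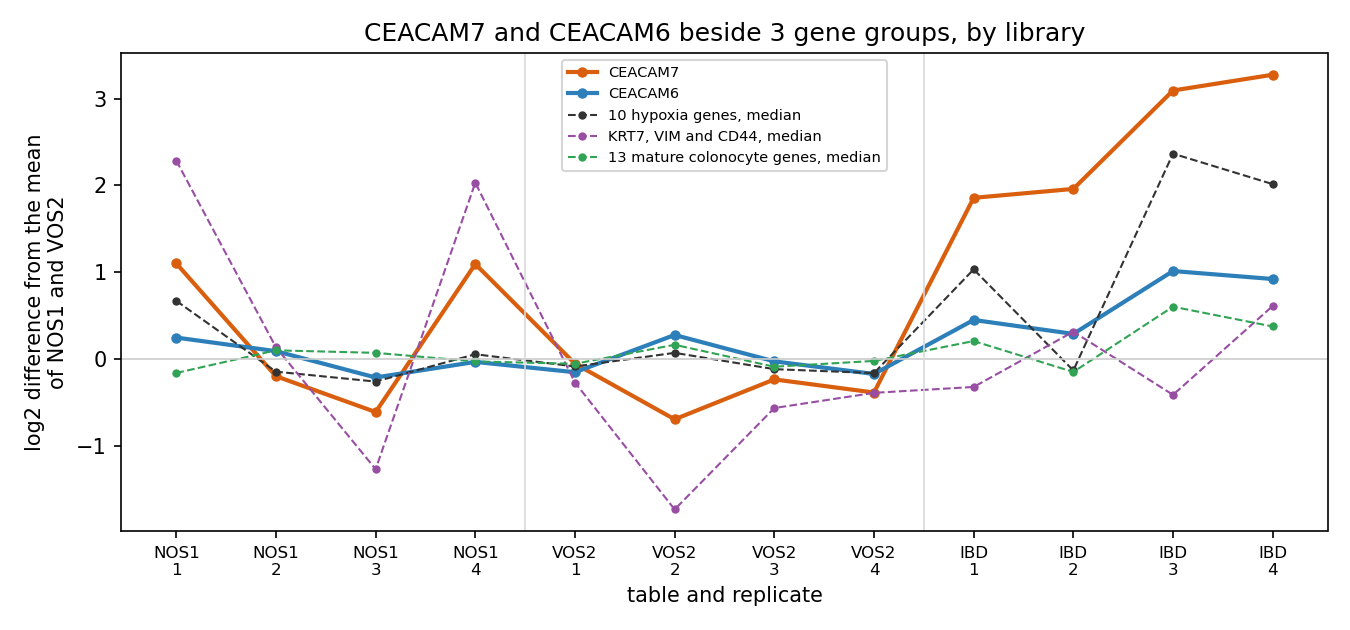
Log2 difference from the mean of the 8 NOS1 and VOS2 libraries (vertical axis) for CEACAM7, CEACAM6 and the medians of 3 gene groups, by table and replicate (horizontal axis). The hypoxia median is 2.37 and 2.01 in IBD replicates 3 and 4 and -0.13 in IBD replicate 2, and the median of KRT7, VIM and CD44 is 2.29 and 2.03 in NOS1 replicates 1 and 4. No relation between the lines was tested.

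The rest of the family was sparsely measured. Of 9 other CEACAM genes in the tables, 3 passed the filter on low counts and 4 were at 0 in all 12 libraries. CEACAM19, among the latter, lies wholly inside another gene and held 72 to 122 counts per VOS1 library, so its zeros are not read as absence. No member of this list was called in any of the 3 comparisons, and for IBD against VOS2 and NOS1 the shares of all genes called higher were those given above and the shares called lower were 2.24% and 3.01%. None of the genes of the lists below was called in VOS2 against NOS1. CEACAM20, a family member of the intestinal brush border in mouse, had 0.970, 0.112, 5.95 and 4.91 CPM in IBD replicates 1 to 4. It had 0.318 to 0.535 CPM in VOS2 and 0.057 to 1.70 in NOS1. Its log2 fold change of 2.72 ± 0.89 against VOS2 did not pass (edgeR adjusted p = 0.101), nor did 2.27 ± 0.84 against NOS1 (edgeR adjusted p = 0.122). The IBD libraries overlapped with both other tables, and replicate 2 had 2 counts.

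CEACAM18 differed by less than the spread of its libraries, at 10.3 ± 3.28 CPM in IBD, 10.4 ± 1.30 in VOS2 and 10.0 ± 1.94 in NOS1 (SD, n = 4 each). On the log2 scale IBD lay 0.02 ± 0.21 above VOS2 and 0.07 ± 0.21 above NOS1 (edgeR adjusted p = 0.982 and 0.88). CEACAM3, a phagocytic receptor of granulocytes, reached at most 0.283 CPM in any of the 12 libraries. CEACAM4 was at 0 in all 16 libraries, and CEACAM8, a granulocyte surface molecule, lies inside LIPE-AS1 and was at 0 in the 12. The pregnancy-specific glycoproteins, the placental branch of the family, had 10 genes in the tables of which none passed the filter, and together they reached at most 1.99 CPM in a library.

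The machinery that attaches the GPI anchor, which CEACAM5, CEACAM6 and CEACAM7 share, had few calls. Of 30 genes of anchor synthesis and transfer, 24 were tested and 5 were at 0 in all 12 libraries. Among the latter, PIGM, PIGS and DPM2 had means of 12.3, 109 and 33.3 CPM in VOS1, so their zeros are not read as absence. Of the 24 tested genes, 1 rose in IBD against VOS2 and none against NOS1, beside 2.32% and 2.8% of all tested genes. The one was DPM3, a subunit of dolichol-phosphate mannose synthase, at 5.23 ± 0.765 CPM in IBD and 3.14 ± 0.436 in VOS2 (log2 fold change 0.76 ± 0.16, edgeR adjusted p = 0.0164). The median log2 fold change of the list was 0.02 against VOS2 and 0.03 against NOS1, beside -0.01 and -0.02 over all tested genes. PIGT and PIGU, subunits of the transamidase that transfers the anchor, had log2 fold changes of -0.04 ± 0.09 and 0.11 ± 0.08 against NOS1.

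Other GPI-anchored surface proteins moved one by one. Of 21 tested genes, 3 rose in IBD against VOS2, and 2 rose and 1 fell against NOS1, with list medians of 0.15 and -0.19. Over all tested genes 2.32% were called higher against VOS2, and 2.8% higher and 3.01% lower against NOS1. VNN1, a pantetheine hydrolase of the enterocyte surface, rose in both, from 0.313 ± 0.139 CPM in VOS2 and 0.322 ± 0.167 in NOS1 to 1.82 ± 0.453 in IBD. It is a low-count gene, with 24 to 44 counts per IBD library, 3 to 7 per VOS2 library and 3 to 11 per NOS1 library. Its log2 fold changes were 2.56 ± 0.38 and 2.49 ± 0.37 (edgeR adjusted p = 0.00135 and 0.00165), and both calls were kept under every alternative. MELTF, a melanotransferrin, rose by 0.75 ± 0.18 and 0.76 ± 0.18 (edgeR adjusted p = 0.0316 and 0.0274). EFNA1, an ephrin ligand, rose against VOS2 (1.419 ± 0.35, edgeR adjusted p = 0.0333). LY6E fell against NOS1, from 9.03 ± 7.16 to 1.77 ± 0.606 CPM (log2 fold change -2.32 ± 0.53, edgeR adjusted p = 0.0217). The calls of MELTF, EFNA1 and LY6E were each lost without IBD replicate 3 and without IBD replicate 4, that of LY6E also without NOS1 replicate 1, NOS1 replicate 4 or IBD replicate 1. MELTF was also lost without NOS1 replicate 4, and MELTF and EFNA1 without any one VOS2 library.

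Of 14 listed signalling partners of CEACAM1, 12 could be tested in the 12 libraries, where CEACAM1 itself was listed at 0. ITGB3 was at 0 there. CALM2 had means of 0.0401, 0.109 and 0.0383 CPM in NOS1, VOS2 and IBD but 647 CPM in VOS1, so it is not read as absent. Of 12 tested genes, LYN rose in IBD against VOS2 and FLNA fell against NOS1, with list medians of 0.02 and -0.01. Among all tested genes 2.32% were called higher against VOS2 and 3.01% lower against NOS1. LYN, a Src family kinase, went from 30.1 ± 0.964 to 36.0 ± 2.16 CPM (log2 fold change 0.29 ± 0.08, edgeR adjusted p = 0.0471), and this call was lost under 15 of 19 alternatives, including the omission of any 1 of the VOS2 libraries or of IBD replicates 1, 2 or 4. FLNA, the actin crosslinker filamin A, went from 948 ± 308 CPM in NOS1 to 525 ± 55.9 in IBD (-0.82 ± 0.18, edgeR adjusted p = 0.0162), a call lost without NOS1 replicate 4, IBD replicate 3 or IBD replicate 4.

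CEACAM7 is known as a gene of the mature colonocyte, and 13 of 21 genes of mature colonocytes could be tested. In IBD against NOS1 CA4, a carbonic anhydrase of the colonocyte surface, rose from 0.411 ± 0.248 to 1.69 ± 0.768 CPM (log2 fold change 2.06 ± 0.54, edgeR adjusted p = 0.0381), and 12 of 20 alternatives, including the omission of any IBD library but replicate 2 or any NOS1 library but replicate 2, lost the call. No other gene of the list passed in either comparison, while 2.32% of all tested genes were called higher against VOS2 and 2.8% against NOS1. The list median was 0.39 against VOS2 and 0.27 against NOS1, and by library it was 0.60 and 0.37 in IBD replicates 3 and 4 and 0.21 and -0.15 in replicates 1 and 2. SLC26A2, the most abundant tested gene named from the list, stood at 522 ± 258 CPM in IBD and 408 ± 45.4 in VOS2 (log2 fold change 0.38 ± 0.25, edgeR adjusted p = 0.457). SLC26A3, the chloride and bicarbonate exchanger of the colon surface, went the other way, at 34.3 ± 9.60 CPM in IBD and 39.1 ± 9.29 in VOS2 (log2 fold change -0.17 ± 0.20, edgeR adjusted p = 0.708).

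Among 17 tested transcription factors known from CEACAM promoters or colon epithelium, 2 rose in IBD against each table and none fell. The list medians were 0.14 and 0.11, and 2.32% and 2.8% of all tested genes were called higher against VOS2 and NOS1. RELB, an NF-kappaB subunit, rose in both comparisons, from 12.1 ± 2.64 CPM in VOS2 and 14.1 ± 3.90 in NOS1 to 28.8 ± 3.16 in IBD. Its log2 fold changes were 1.28 ± 0.18 and 1.06 ± 0.18 (edgeR adjusted p = 0.000926 and 0.00412), and no alternative removed either call. NFKB2, the precursor of another NF-kappaB subunit, rose against VOS2 (0.92 ± 0.22, edgeR adjusted p = 0.026), a call lost without VOS2 replicate 1, 2 or 4 or without IBD replicate 1 or 3. SMAD3, a mediator of TGF-beta signals, rose against NOS1 (0.43 ± 0.10, edgeR adjusted p = 0.0262), a call lost without NOS1 replicate 4, IBD replicate 3 or IBD replicate 4. IRF1 and SOX9 were at 0 in all 12 libraries but not in VOS1, so that nothing can be said of them.

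The genes whose profile was most like that of CEACAM7 over the 12 libraries were, by Pearson's r of log2 CPM among 10178 genes, FDFT1 (0.968), CASP10 (0.963), TNIP1 (0.962), CTSS (0.962), HSD17B7 (0.956), ANXA6 (0.955), FDPS (0.948) and C3 (0.946). These values describe 12 libraries, of which 4 each share a table. The ranking takes in the IBD libraries by which CEACAM7 was chosen, so genes also higher in IBD can rank high on that account. It is a description and no independent evidence. C3, complement component 3, had 728 ± 106 CPM in IBD, 154 ± 31.2 in VOS2 and 185 ± 99.9 in NOS1. CTSS, the protease cathepsin S, had 33.7 ± 4.81, 10.3 ± 1.75 and 16.1 ± 6.66 CPM. CEACAM6 ranked at place 72 for likeness to CEACAM7, with r of 0.866. The 3 genes most like CEACAM6 were LDHA (0.957), SHH (0.957) and HHLA2 (0.956), and CEACAM7 ranked at place 132.

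The libraries carried markers of intestinal epithelium, with VIL1 at 495 to 676 CPM and EPCAM at 583 to 797 CPM in the 12 libraries. KRT20 and CLDN7 of this list were low there. KRT20 had means of 4.94 CPM in NOS1, 4.38 in VOS2 and 5.90 in IBD, and CLDN7 had 3.35, 2.53 and 3.16 CPM. In VOS1, counted over other gene features, their means were 6.89 and 94.0 CPM. The low values of CLDN7 are therefore not read as low expression. None of 8 epithelial markers was called in any comparison. KRT8 and KRT18, the keratins of simple epithelia, had log2 fold changes of -0.28 ± 0.11 and -0.36 ± 0.12 in IBD against VOS2 (edgeR adjusted p = 0.176 and 0.106). Since other members of the family mark granulocytes, markers of other cells were read beside CEACAM7. The 8 granulocyte markers summed to 0.103 to 0.5 CPM in NOS1, 0.212 to 0.623 in VOS2 and 0.167 to 0.437 in IBD, with ELANE and FCGR3B at 0 throughout. The 7 leukocyte markers summed to 18.3 to 19.3 CPM in NOS1, 17.9 to 20.4 in VOS2 and 33.4 to 35.4 in IBD. LYZ, which epithelia also make, rose from 7.89 ± 0.591 CPM in VOS2 and 9.43 ± 1.00 in NOS1 to 24.6 ± 1.74 in IBD (edgeR adjusted p = 3.97e-06 and 3.36e-05), while PTPRC, the defining leukocyte marker, was at most 0.184 CPM in any of the 12 libraries.

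CD14 fell against VOS2 (log2 fold change -0.74 ± 0.16, edgeR adjusted p = 0.0169), and ITGAM rose against NOS1 (0.56 ± 0.16, edgeR adjusted p = 0.0493). The call of CD14 was lost without VOS2 replicate 1, IBD replicate 3 or IBD replicate 4, and that of ITGAM without any one of 6 libraries. Among all tested genes, 2.32% and 2.8% were called higher and 2.24% and 3.01% lower against VOS2 and NOS1. Of 4 fibroblast markers tested, of 6, LUM fell against both tables (-0.91 ± 0.19 and -0.83 ± 0.19, edgeR adjusted p = 0.0128 and 0.0216), the second call being lost without NOS1 replicate 2, IBD replicate 1 or IBD replicate 3, and neither of the 2 endothelial markers tested, of 5, was called. The summed fibroblast markers ran from 31.03 to 45.7 CPM in NOS1, 34.6 to 43.7 in VOS2 and 26.9 to 51.9 in IBD, and the endothelial ones from 14.9 to 20.4, 17.97 to 18.8 and 14.3 to 24.6. The part of these genes in the CEACAM7 levels was not tested.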

How the data were processed

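The authors deposited raw counts per gene and FPKM for 4 tables of 4 libraries, and all 32 value columns were used (0 left unused). The build hg38, STAR 2.7.11a and featureCounts 2.0.6 are named in the submitters' processing notes, beside fastp 0.23.4, DESeq2 1.42.0 and FastQC 0.12.1, without their settings. Total counts per library were 15078620 to 20609117 in NOS1, VOS2 and IBD and 21868713 to 28148186 in VOS1. Intervals from these depths would cover counting error only.

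CPM was computed from total counts. One edgeR 4.0.16 quasi-likelihood model (R 4.3.3, TMM, default filter on low counts) held the 12 libraries of NOS1, VOS2 and IBD, with Benjamini-Hochberg adjustment over 14773 genes and a threshold of 0.05. VOS1 was left out because it was counted over shorter features. The fit was tested on simulated data. The members and gene lists were chosen with earlier results of these data known. Named from each list were up to 4 called genes with the largest change or, failing these, up to 2 with the highest CPM. Genes like CEACAM7 (8) and CEACAM6 (3) needed a mean log2 CPM of 2. Exceptions such as CEACAM3, CEACAM4, CEACAM8, CEACAM19, PIGM, PIGS, DPM2, IRF1, SOX9, VIL1, EPCAM, KRT20, CLDN7 and PTPRC were named after their values were seen. Alternatives were other scalings, filters and library sets, DESeq2 1.42.0, limma 3.58.1 on log2(FPKM + 1) and log2(FPKM + 0.1), a replicate block and libraries left out. No replicate pair agreed within sampling noise.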

Additional observations from a re-analysis of the deposited data

Results flagged for a closer look

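A library that stood far from the other 3 of its table was found in 11 of 162 groups of 4 libraries (Dixon's ratio above its 95% critical value), and chance alone flags about 1 in 20. CEACAM5 was at 22.3 CPM in VOS1 replicate 4 and at 54.5 to 60.6 CPM in the other VOS1 libraries. That replicate also stood apart from them over all well-counted genes. NOS1 replicate 1 stood apart for NDRG1 at 316 CPM, CA9 at 1.25 CPM, LDHA at 1056 CPM and SMAD3 at 93.0 CPM. SMAD3 stood apart in IBD replicate 3 as well, at 134 CPM against 96.4 to 101 CPM, and CD14 in IBD replicate 1, at 3.20 CPM. VOS2 replicate 3 was high in KRT8 at 6206 CPM, KRT18 at 2788 CPM and FDPS at 142 CPM, and VOS2 replicate 2 was low in ANXA6 at 29.03 CPM.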

How the results depend on the processing

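The rise of CEACAM7 in IBD chose the members, so its values in other settings are a description and no support. Its log2 fold change in IBD ran from 2.77 to 3.25 against VOS2 and from 1.91 to 2.43 against NOS1 with 1 library left out. It was 2.25 against VOS2 without IBD replicates 3 and 4 and 3.08 against NOS1 without NOS1 replicates 1 and 4. On log2(FPKM + 1) it was 0.60 and 0.52, and on log2(FPKM + 0.1) it was 1.97 against VOS2; such pseudocounts shrink low values. CEACAM6 ran from 0.63 to 0.86 and from 0.58 to 0.82 with 1 library left out, and was 0.38 against VOS2 on log2(FPKM + 1). In VOS2 against NOS1 CEACAM6 turned sign among the omissions (-0.15 to 0.0267) and without NOS1 replicates 1 and 4 (0.018), CEACAM7 ran from -1.09 to -0.61 and turned to 0.0455 without NOS1 replicates 1 and 4, and neither was called in any setting. The cause was not tested.

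Called members in IBD against VOS2 fell from 2 to 1 in both limma fits, under the replicate block and without IBD replicates 3 and 4, and were 1 to 2 with 1 library left out. Against NOS1 they were 1 in the fit of the 2 tables alone, both limma fits, the replicate block and without NOS1 replicates 1 and 4, 0 without IBD replicates 3 and 4, and 1 to 2 with 1 library left out. Same-numbered libraries correlated at -0.232 to 0.186 in their deviations. The main model took no pairing from the numbers, and such correlations cannot exclude a shared day or batch. The replicate block lowered the calls from 674 to 418 against VOS2 and from 858 to 593 against NOS1.

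Of the genes in the related lists, 7 were called in each IBD comparison. Against VOS2 DESeq2 called 12, and 3 were called by limma, by the replicate block and without IBD replicates 3 and 4, with 3 to 11 when 1 library was left out. Against NOS1 there were 16 without a filter, 2 in the fit of the 2 tables and in limma, 3 without IBD replicates 3 and 4, and 2 to 15 with 1 library left out. In VOS2 against NOS1 there were 0, 6 without a filter and 0 to 6 with 1 library left out, 6 without NOS1 replicate 3. Without a filter edgeR called 255 genes there, and without NOS1 replicate 3 it called 376. Across other settings the 72 further gene comparisons gave 1197 of 1386 values on the same side of the threshold and in no case a called reversal. With exon lengths from GENCODE v29, added after seeing the data, the mean of CEACAM5 in VOS1 was 14.5 in place of 12.2 FPKM. The length raised every library by the same factor, which the spread between libraries does not measure. Counts of 36 to 63 reads for CEACAM7 per VOS2 library limit the precision of its fold change.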
